A study of Homo sapiens with 2 samples.

Results

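Chemokines, interleukins, colony-stimulating factors and their receptors were followed in S2-013 cells, a human pancreatic cancer cell line, with and without a MEK inhibitor. The set was every gene whose symbol in the platform annotation starts with CCL, CXCL, CCR and a digit, CXCR, IL and a digit, CSF or OSM, together with ICAM1, and antisense genes were left out. It held 111 of the 13763 named genes, each read by 1 probe set. The first group was 1 array of HOXB7-knockdown S2-013 cells carrying a rescue-HOXB7 plasmid and treated with the MEK inhibitor. The second was 1 array of the same knockdown and rescued cells without the inhibitor, so the knockdown and the rescue plasmid were shared by both. The sources used here name neither the inhibitor nor its dose or exposure time, and do not say how many clones the knockdown line holds. With 1 array per group there is no replicate error, no test was run, and every value below describes these 2 arrays.

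Chemokines are small secreted proteins that guide leukocytes through G protein-coupled receptors. The CC and CXC classes are named after the spacing of their first cysteines. Many interleukins and some colony-stimulating factors act on neighbouring cells through receptor chains that signal by JAK kinases and STAT factors. The IL-1 and IL-17 families signal through adaptors that lead to NF-kappaB. Pancreatic cancer cells are known to secrete such factors themselves. MEK phosphorylates and activates ERK.

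The arrays had nearly equal value distributions, with a median over all probe sets of 3.46 with the inhibitor, against 3.49 without it. Values are on a log2 scale, which was inferred from their range, and a difference is the inhibitor value minus the value without it. Each gene's values were averaged over the arrays, and the median of these averages across genes, 4.78, is called the median level. Of 7 ERK output genes all were at least 2-fold lower with the inhibitor, between -2.94 (EGR1) and -1.002 (SPRY2). The keratin genes KRT18 and KRT19 and the adhesion gene EPCAM, which mark epithelial cells, read 11.3, 8.87 and 10.5 with the inhibitor, against 11.6, 8.94 and 10.5 without it. Of the other 3 named epithelial markers, KRT8 differed by -0.19, KRT7 by 0.35 and the claudin gene CLDN4 by 0.95. Of 7 named leukocyte markers 5 reached the median level in either array. The macrophage-associated lysosomal gene CD68 read 8.53 with the inhibitor, against 8.95 without it, whereas the others lay between 3.38 and 5.09 with it and between 3.45 and 5.23 without it. As linear values the 7 markers summed to 509 with the inhibitor, against 655 without it, and CD68 alone made up most of both sums. The part of these markers in the differences below was not tested.

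Most of these genes read low in both arrays. Without the inhibitor 85 of the 111 lay below the median level, and 81 stayed below it in both arrays. The other 30 reached it in either array, which is 27.0% of the set, against 52.1% of all named genes. Over all 111 genes the median difference was -0.03, against 0.01 over all named genes. By sign, 51 were higher with the inhibitor and 60 lower, against 6991 higher and 6759 lower over all named genes. Of the 60, 50 lay below the median level in both arrays. Differences under 0.5 in size were read for 92 of the 111, or 82.9%, and for 91.1% of all named genes. In a bulk sample, a change in the number of expressing cells and a change in RNA per cell cannot be told apart.

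At least 2-fold higher with the inhibitor were 5 of the 111 genes, a share of 4.5%, against 0.407% of all named genes. These were CCL20, IL32, CXCL10, CXCL16 and ICAM1. At least 2-fold lower was 1 gene, CCL3L1, a share of 0.901%, against 0.625% of all named genes. Just outside the threshold on the lower side stood IL1RAPL1 (-0.996), IL7R (-0.97) and CCL3 (-0.92). No gene of the set had a difference between 0.80 and 1 on the higher side, where CXCR4 (0.76) came next. At 1.5-fold, 8 genes were higher (7.21%, against 3.2% of all named genes) and 7 lower (6.31%, against 2.59%). As a measure of probe error, the brightest pair of probe sets of the same gene was compared in 163 other genes where both reached the median level. The gap between their differences had a median of 0.13 and a 95th percentile of 0.55. In 239 genes where neither probe set reached it, these values were 0.19 and 0.61. Over all 611 genes compared, which include those where only 1 of the pair reached it, they were 0.20 and 0.75. This error holds no variation between cultures.

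**Figure D1:**
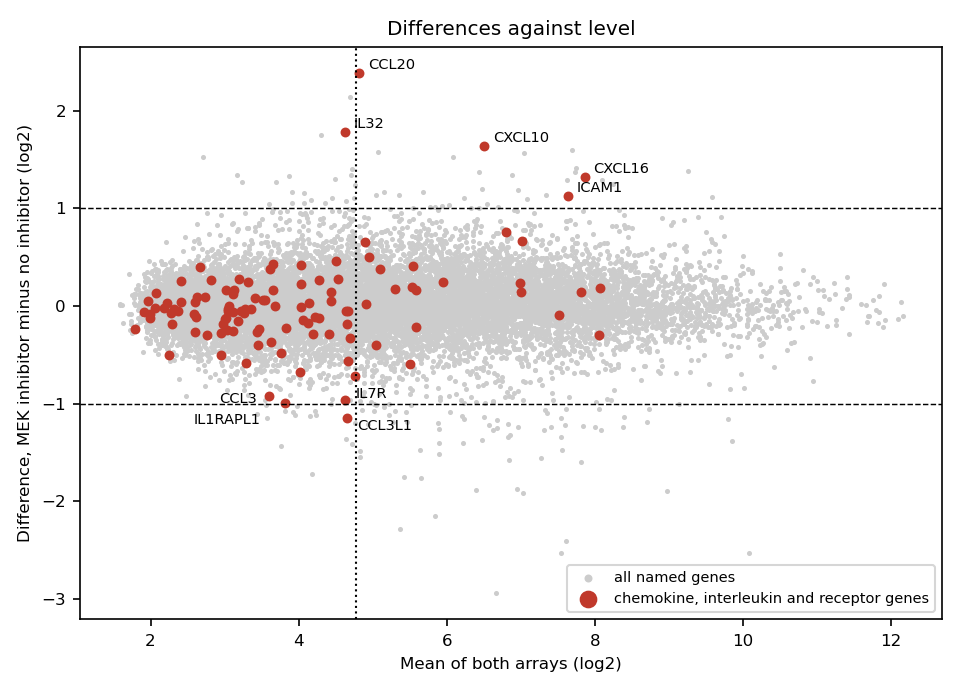
Log2 difference (MEK inhibitor minus no inhibitor) against the mean of both arrays for all 13763 named genes (grey) and the 111 chemokine, interleukin and receptor genes (red). Dashed lines mark 2-fold, the dotted line marks the median level of 4.78, and labelled genes differ by 0.8 or more: CCL20 is the highest point of all, and most red points lie left of the dotted line near 0.

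CCL20 had the highest difference of all 13763 named genes. This CC chemokine attracts CCR6-bearing lymphocytes and dendritic cells, and read 6.01 with the inhibitor, against 3.63 without it, a difference of 2.39 or 5.23-fold. It started below the median level and ended above it. IL32, a pro-inflammatory cytokine gene, followed the same course, with 5.51 with the inhibitor, against 3.73 without it. Its difference of 1.78 (3.43-fold) ranked number 3 among all named genes. For both, the fold starts from a dim signal, and whether that signal exceeded background is unknown.

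The other 3 genes started above the median level. CXCL10, the interferon-inducible ligand of CXCR3, read 7.33 with the inhibitor, against 5.69 without it, a difference of 1.63 (3.10-fold, rank 5). CXCL16, a chemokine made as a transmembrane protein and shed by metalloproteases, had 8.53 with the inhibitor, against 7.21 without it, a difference of 1.32 (2.49-fold, rank 20). ICAM1, the adhesion receptor that leukocyte integrins bind, read 8.20 with the inhibitor, against 7.08 without it, a difference of 1.12 (2.18-fold, rank 37). Of the genes of the set that started at or above the median level, 3 of 26 were at least 2-fold higher, against 0.438% of all named genes that started there. Of those that started below it, 2 of 85 were, against 0.376%. On the lower side the counts were 1 of 26, against 1.09%, and 0 of 85, against 0.159%.

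**Figure D2:**
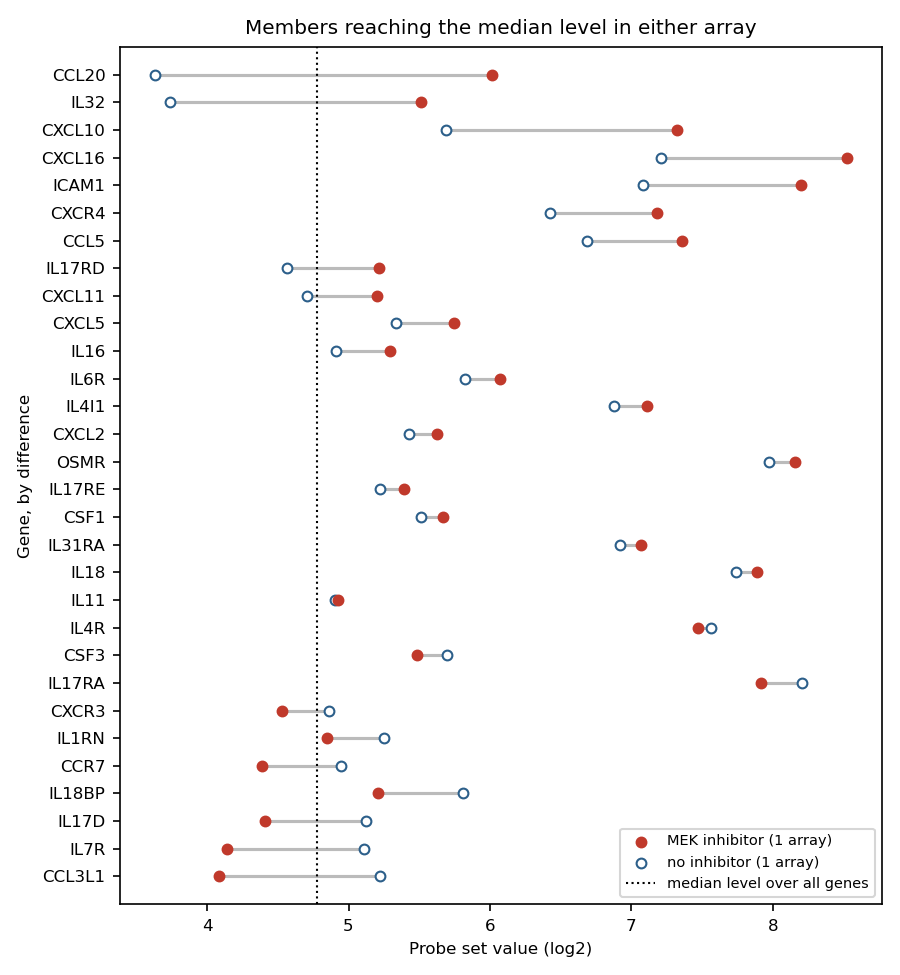
Log2 value with the MEK inhibitor (filled red, 1 array) and without it (open blue, 1 array) for the 30 genes that reached the median level (dotted line, 4.78) in either array, ordered by difference. CCL20 and IL32 cross the line upwards with the widest gaps, and CCL3L1, IL7R, IL17D, CCR7 and CXCR3 cross it downwards.

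The promoters of these genes are shown because the members that differed most in the same direction can be compared by their sequence. RefSeq entries were found for CCL20, IL32, CXCL10 and ICAM1. Each line gives the 250 bases before the gene's start in GRCh38.p14, read 5′ to 3′ on the strand of the gene, and capitals mark every match on either strand to the NF-kappaB consensus, a motif of 10 bases. The regions are chr2:227813592-227813841 (plus strand) for CCL20, chr16:3065153-3065402 (plus strand) for IL32, chr4:76023498-76023747 (minus strand) for CXCL10 and chr19:10270870-10271119 (plus strand) for ICAM1.
CCL20: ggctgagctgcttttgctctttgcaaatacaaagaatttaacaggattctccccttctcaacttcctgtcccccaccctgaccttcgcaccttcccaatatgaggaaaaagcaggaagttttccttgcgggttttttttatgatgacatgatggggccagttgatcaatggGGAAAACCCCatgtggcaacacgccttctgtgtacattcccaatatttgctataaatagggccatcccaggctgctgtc
IL32: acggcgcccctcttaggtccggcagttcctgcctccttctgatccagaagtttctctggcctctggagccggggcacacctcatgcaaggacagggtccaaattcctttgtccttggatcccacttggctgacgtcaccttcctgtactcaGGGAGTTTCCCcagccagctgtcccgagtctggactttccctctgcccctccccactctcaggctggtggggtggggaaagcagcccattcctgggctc
CXCL10: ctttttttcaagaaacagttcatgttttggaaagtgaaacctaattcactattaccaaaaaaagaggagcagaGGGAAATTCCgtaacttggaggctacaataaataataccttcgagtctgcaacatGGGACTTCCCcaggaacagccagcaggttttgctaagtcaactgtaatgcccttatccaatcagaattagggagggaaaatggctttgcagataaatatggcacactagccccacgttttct
ICAM1: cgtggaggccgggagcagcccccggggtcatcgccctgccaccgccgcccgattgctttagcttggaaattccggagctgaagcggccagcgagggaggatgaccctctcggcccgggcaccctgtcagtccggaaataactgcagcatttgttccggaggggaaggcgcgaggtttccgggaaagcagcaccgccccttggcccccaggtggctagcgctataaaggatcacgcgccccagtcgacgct

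CXCL10 held 2 separate NF-kappaB matches, GGGAAATTCC at bases -177 to -168 and GGGACTTCCC at bases -122 to -113, counted back from the start. CCL20 held 1 match, GGAAAACCCC at bases -79 to -70, which fits the motif on the opposite strand. IL32 held 2 overlapping matches that form 1 run of capitals, and ICAM1 had no exact match in this window. Only exact matches were counted, and near matches were counted neither in these windows nor over the other promoters. The motif occurred in 5.05% of 27305 RefSeq promoters of the same length. Among the 82 genes of the set with an entry it occurred in 12, or 14.6%, and 8 of these 12 had a difference above 0. Besides CCL20, IL32 and CXCL10, these were CXCL11 (0.50), CXCL5 (0.41), CCL22 (0.23), CXCL2 (0.20) and CXCL3 (0.08). The other 4 were IL17REL (-0.05), IL4R (-0.09), CXCL6 (-0.13) and IL17D (-0.72). Since the 12 include the 3 genes whose promoters were shown for their differences, the count of 8 is no independent reading of a direction.

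The core of the interferon-stimulated response element, GAAA followed by any pair of bases and GAAA again, was found in CXCL10 as GAAAGTGAAA at bases -221 to -212, and in 3.07% of all promoters. A STAT motif, TTCNNNGAA, was found in ICAM1 as TTCCGGGAA at bases -75 to -67, and in 6.78% of all promoters. The AP-1 motif TGANTCA, searched on both strands like the others, was in none of the 4 windows and in 6.60% of all promoters. Over the 82 genes the core occurred in 7 (8.54%), the STAT motif in 10 (12.2%) and the AP-1 motif in 14 (17.1%). All 4 motifs were thus more frequent here than over all promoters, and the NF-kappaB motif was not alone in this. A match is a description of letters, not of binding.

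Among the 23 CC chemokines, 3 reached the median level in either array, CCL20, CCL5 and CCL3L1. CCL5, a chemokine that attracts T cells and monocytes, read 7.36 with the inhibitor, against 6.69 without it, a difference of 0.67. CCL3L1, a near-identical copy of the macrophage inflammatory chemokine gene CCL3, had 4.08 with the inhibitor, against 5.23 without it, a difference of -1.14 (2.21-fold lower). CCL3 read 3.14 with the inhibitor, against 4.07 without it. CCL4, its neighbour and close relative, read 3.68 with the inhibitor, against 4.35 without it, a difference of -0.68. All 3 thus ended dim, and since CCL3 and CCL3L1 are so alike in sequence, their probe sets cannot be taken as separate readings.

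The other CC chemokines were below the median level in both arrays. The lowest differences among them after CCL3 and CCL4 were those of CCL8 (-0.50) and CCL24 (-0.50), and the highest was that of CCL21 (0.46), a ligand of the homing receptor CCR7, which read 4.73 with the inhibitor, against 4.27 without it. Differences of CCL1, CCL2, CCL7, CCL11, CCL15-CCL14, CCL16, CCL17, CCL18, CCL19, CCL22, CCL23, CCL25, CCL26, CCL27 and CCL28 lay between -0.28 (CCL28) and 0.26 (CCL2). The monocyte chemoattractant gene CCL2 read 2.95 with the inhibitor, against 2.69 without it.

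Among the 13 CXC chemokines of the set, all with CXCL symbols, 10 had differences above 0, and the median was 0.14. CXCL10, CXCL16, CXCL5 and CXCL2 reached the median level in both arrays and were higher with the inhibitor. CXCL11 reached it only with the inhibitor, so its direction was fixed by the filter on level. CXCL11, which shares the receptor CXCR3 with CXCL10, read 5.20 with the inhibitor, against 4.70 without it, starting just below the median level. CXCL5 and CXCL2, neutrophil attractants that act on CXCR2, read 5.74 and 5.63 with the inhibitor, against 5.34 and 5.43 without it. The differences of CXCL11, CXCL5 and CXCL2, 0.50, 0.41 and 0.20, are within the disagreement between probe sets. CXCL8, the best known neutrophil attractant, was below the median level, with 3.73 with the inhibitor, against 3.57 without it. CXCL9, the third ligand of CXCR3, read 2.24 with the inhibitor, against 2.21 without it. CXCL3, CXCL6, CXCL12, CXCL13, CXCL14 and CXCL17 were also below the median level in both arrays, with differences between -0.37 (CXCL12) and 0.14 (CXCL13).

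**Figure D3:**
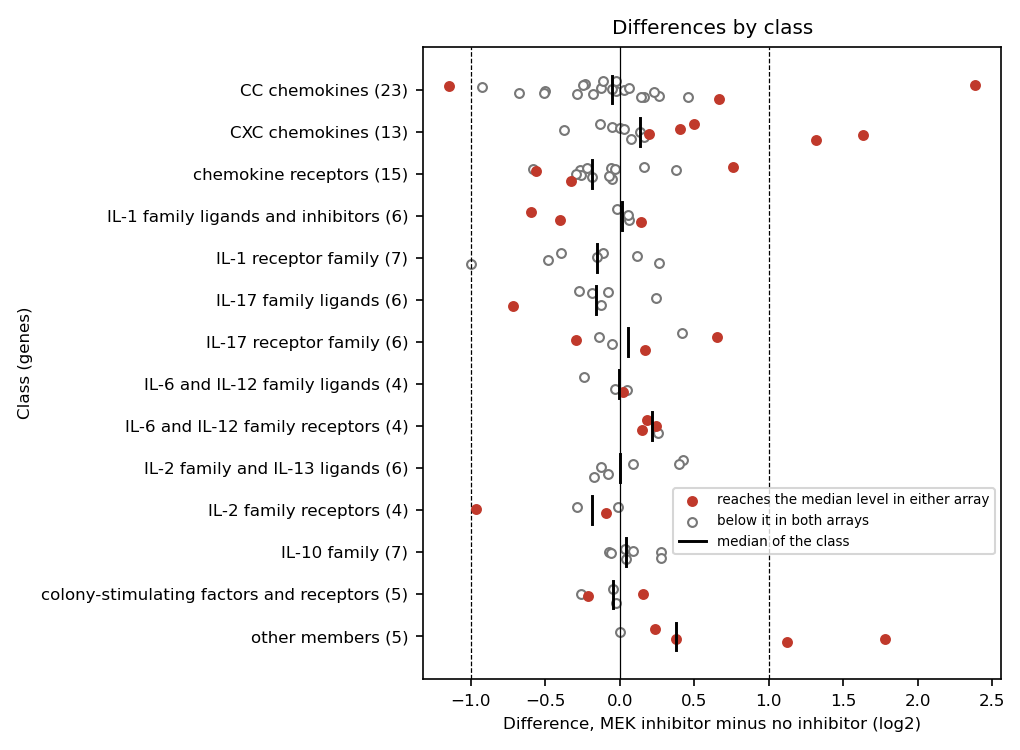
Log2 difference (MEK inhibitor minus no inhibitor) of all 111 genes by class, with the number of genes in brackets. Red points reached the median level in either array, open points did not, black bars are class medians and dashed lines mark 2-fold. CXC chemokines lie mostly right of 0 and chemokine receptors mostly left of it.

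Many chemokine genes lie in clusters, and the genes within a cluster did not all differ alike. On chromosome 4, CXCL9, CXCL10 and CXCL11 follow each other in the RefSeq gene table and differed by 0.03, 1.63 and 0.50. The 6 other genes of the set with CXCL symbols on that chromosome, CXCL8, CXCL6, CXCL5, CXCL3, CXCL2 and CXCL13, ranged from -0.13 to 0.41. On chromosome 17, 10 of 13 CC genes had differences below 0, with a median of -0.12. CCL5 (0.67), CCL2 (0.26) and CCL1 (0.16) were the exceptions. The neighbours CCL3 and CCL4 had the lowest values of the 12 genes that could be ordered, and CCL3L1 could not be placed.

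**Figure D4:**
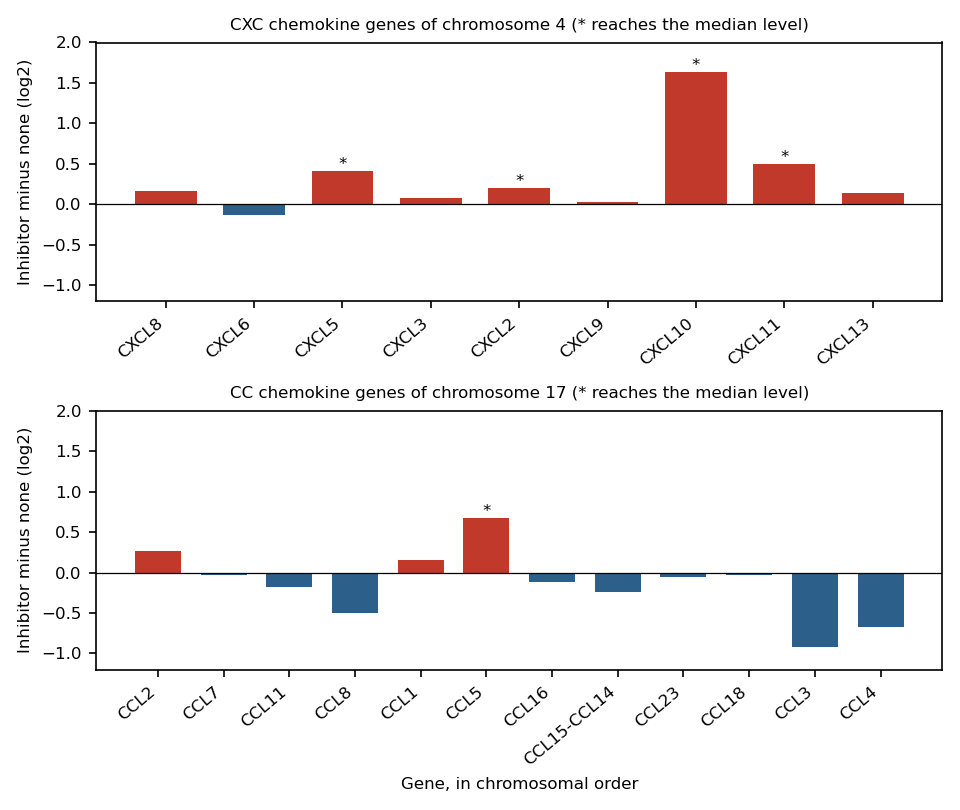
Log2 difference (MEK inhibitor minus no inhibitor) of the 9 genes of the set with CXCL symbols on chromosome 4 and 12 CC genes of chromosome 17, in chromosomal order. Bars are red above 0 and blue below it, and an asterisk marks genes that reached the median level in either array. CXCL10 stands out on chromosome 4, and CCL5 (0.67) and CCL3 (-0.92) are the ends of the range on chromosome 17.

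Chemokine receptors mostly read low, and 12 of 15 had differences below 0, with a median of -0.19. CXCR4, the receptor of CXCL12 that is known from metastatic cells, was the only one to reach the median level in both arrays. It read 7.18 with the inhibitor, against 6.42 without it, a difference of 0.76 (1.69-fold). CCR7, the receptor for lymph node homing, read 4.39 with the inhibitor, against 4.95 without it. CXCR3 had 4.53 with the inhibitor, against 4.86 without it, a difference of -0.33. CCR10, a receptor of skin- and mucosa-homing lymphocytes, had a difference of -0.58 and was dim in both arrays. CCR2 (0.38) and the pseudogene CXCR2P1 (0.17) were the other 2 above 0. CCR1, CCR4, CCR6, CCR8, CCR9, CXCR1, CXCR2, CXCR5 and CXCR6 were below the median level, with differences between -0.30 (CXCR6) and -0.03 (CXCR2).

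Set beside their receptors, most ligands had no partner above the median level. CCR6, the receptor of CCL20, read 3.08 with the inhibitor, against 3.15 without it. CXCR6, the receptor of CXCL16, read 2.61 with the inhibitor, against 2.91 without it. For CXCR4 the reverse held, since its ligand CXCL12 read 3.44 with the inhibitor, against 3.81 without it. Of 20 ligand and receptor pairs listed, 2 had both partners at the median level in at least 1 array, CXCL10 and CXCL11 with CXCR3. Both pairs rest on the same CXCR3 probe set, which reached the level only without the inhibitor, and CXCL11 reached it only with the inhibitor.

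In the IL-1 family, the cytokine IL18 differed little, whereas its soluble inhibitor IL18BP read lower with the inhibitor. IL18 read 7.89 with the inhibitor, against 7.74 without it, a difference of 0.15. IL18BP, which binds and neutralises IL18, read 5.21 with the inhibitor, against 5.81 without it, a difference of -0.60. IL1RN, the antagonist of the IL-1 receptor, read 4.85 with the inhibitor, against 5.25 without it, a difference of -0.40. In size, the IL18BP difference is just past the 95th percentile gap of probe sets that both reached the median level, 0.55. It is within that of all pairs, 0.75, and the IL1RN difference is within both. The alarmin gene IL33, IL37 and the antagonist gene IL36RN were below the median level, with differences between -0.02 and 0.06.

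None of the 7 genes of the set in the IL-1 receptor family reached the median level. SIGIRR, a receptor of the same families outside the set, read 6.07 with the inhibitor, against 6.34 without it. IL1RAPL1, a relative of the IL-1 receptor accessory protein that acts at synapses, read 3.32 with the inhibitor, against 4.31 without it. IL18R1, the ligand-binding chain for IL18, had a difference of -0.48 and IL1RL1, the IL33 receptor, one of -0.39. IL1RAP (0.26), IL18RAP (0.12), IL1RAPL2 (-0.11) and IL1RL2 (-0.15) made up the rest.

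In the IL-17 family the ligands read low and 3 of the 6 receptor genes reached the median level in either array. IL17RA, the chain shared by most receptors of the family, read 7.91 with the inhibitor, against 8.21 without it, a difference of -0.29. IL17RD, also known as SEF, an inhibitor of fibroblast growth factor and ERK signalling, read 5.22 with the inhibitor, against 4.57 without it. Its difference of 0.65 took it across the median level. IL17RE, the receptor of IL17C, read 5.39 with the inhibitor, against 5.22 without it. IL17RB (0.42), IL17RC (-0.14) and IL17REL (-0.05) stayed below the level. Among the ligands IL17D read 4.41 with the inhibitor, against 5.12 without it, a difference of -0.72. IL17A, IL17B, IL17C, IL17F and IL25 were dim, with differences between -0.27 (IL17F) and 0.24 (IL25).

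Of the 4 receptor genes of the set in the IL-6 and IL-12 families, 3 read well above the median level and differed little. OSMR, the oncostatin M receptor chain, had 8.16 with the inhibitor, against 7.97 without it. IL31RA, its partner in the IL31 receptor, read 7.07 with the inhibitor, against 6.92 without it. IL6R, the ligand-binding chain for IL-6, read 6.07 with the inhibitor, against 5.82 without it. These differences of 0.19, 0.15 and 0.25 are within the disagreement between probe sets. IL23R was dim (0.26), and LIFR and CNTFR, related receptor genes outside the set, were below the level in both arrays (0.41 and 0.63). Of the ligands, IL11 read 4.93 with the inhibitor, against 4.90 without it, and OSM (-0.24), IL27 (0.05) and IL31 (-0.03) were below the level.

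Among receptors of the IL-2 family all 4 differences were below 0. IL7R, the IL-7 receptor chain known from lymphocytes, read 4.14 with the inhibitor, against 5.11 without it, a difference of -0.97 (1.95-fold lower). IL4R, the chain that IL-4 and IL-13 share, had 7.47 with the inhibitor, against 7.56 without it, a difference of -0.09. IL9R (-0.29) and IL21R (-0.01) were dim. The ligands IL2, IL4, IL7, IL13, IL15 and IL21 were below the median level in both arrays, with differences between -0.17 (IL7) and 0.43 (IL13).

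The 7 genes of the IL-10 family, IL10, IL19, IL20, IL22, IL24, IL26 and the receptor chain IL20RB, were below the median level in both arrays, with differences between -0.07 and 0.28. The colony-stimulating factor genes CSF1 and CSF3, which direct macrophage and neutrophil production, read 5.67 and 5.48 with the inhibitor, against 5.51 and 5.70 without it. Their differences of 0.16 and -0.21 are small. Their receptor genes CSF1R (-0.05) and CSF3R (-0.03) and the second CSF1R ligand IL34 (-0.26) were dim. Of the remaining genes, IL16, a chemoattractant that binds CD4, read 5.29 with the inhibitor, against 4.91 without it. IL4I1, which matches the rule by name but codes for an amino acid oxidase, read 7.11 with the inhibitor, against 6.87 without it. IL10RB-DT, a non-coding transcript, had a difference of 0.00.

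In all, 4 genes crossed the median level upwards with the inhibitor, CCL20, IL32, CXCL11 and IL17RD. Another 5 crossed it downwards, CCL3L1, IL7R, IL17D, CCR7 and CXCR3. Of the 30 genes that reached the level in either array, the 21 others stayed at or above it in both.

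Genes acting beside these were read from lists of named genes. Each list lacks some of its genes, which were not among the named genes. The NF-kappaB list held 14 genes, of which 7 were named. NFKBIA, NFKBIB, NFKBIE, NFKBIZ and TNFAIP3 were among those missing. Of the 7, 5 had differences above 0, against 6991 of all 13763 named genes, and none reached 2-fold. The subunit genes NFKB2 and RELB, which pair in the non-canonical pathway, differed by 0.60 and 0.54. NFKB2 read 7.88 with the inhibitor, against 7.29 without it, and RELB 6.08 with the inhibitor, against 5.54 without it. The 95th percentile gap between probe sets was 0.55 where both reached the median level and 0.75 over all pairs. RELB was within both values, and NFKB2 was just past the first and within the second. RELA (0.16) and NFKB1 (0.05) differed less, and the coactivator gene BCL3 read -0.35. The median of the 7 was 0.16, against 0.01 over all named genes.

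None of the other lists held a gene past 2-fold. The 9 adaptors of IL-1 and IL-17 receptors all reached the median level and had a median of 0.08. The 16 JAK, STAT and SOCS genes had a median of 0.05. Of those that reached the level, the feedback inhibitor SOCS3 had the lowest difference, -0.45, and STAT5A the highest, 0.35. The kinase gene JAK3, below the level in both arrays, differed by 0.53. The 13 other chemokine system genes had a median of -0.12, and the membrane-bound chemokine CX3CL1 read 4.98 with the inhibitor, against 4.81 without it. PF4, PF4V1 and PPBP, chemokine genes of this list without a CXCL symbol, differed by -0.14, 0.27 and -0.20. Of these only PF4 reached the median level. Among 8 other cytokines and receptors, CRLF2, the receptor of the epithelial cytokine TSLP, had 6.36 with the inhibitor, against 7.13 without it, a difference of -0.77. The gp130 ligand LIF read 6.26 with the inhibitor, against 6.78 without it. Below the median level in both arrays, EBI3, a subunit of IL-27, and CNTFR, a receptor chain for ciliary neurotrophic factor, differed by 0.72 and 0.63 the other way. The median of these 8 was 0.00. Of 4 other adhesion receptors for leukocytes, ICAM3 read 6.44 with the inhibitor, against 5.85 without it, a difference of 0.59, whereas ICAM2 differed by 0.03.

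**Figure D5:**
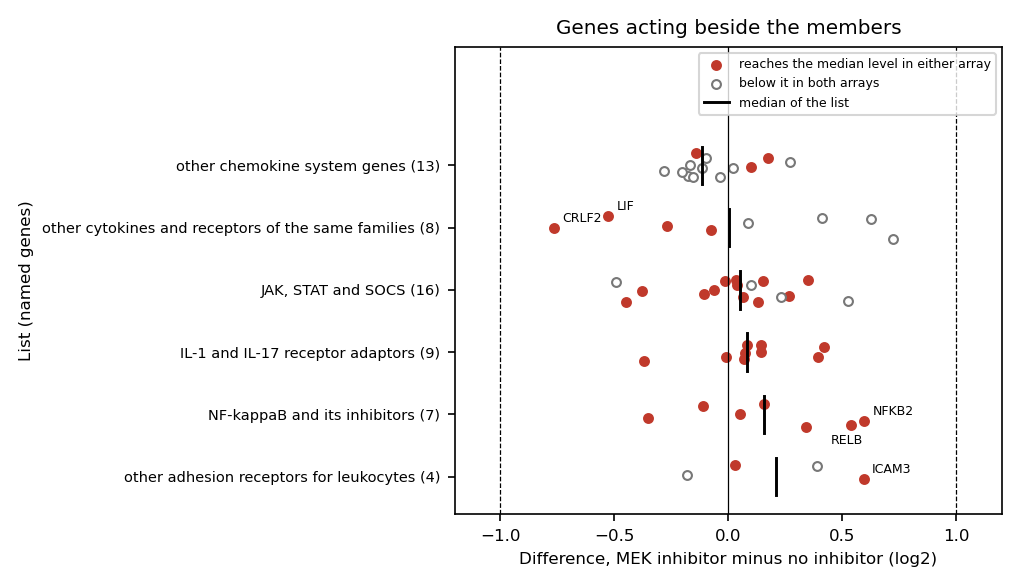
Log2 difference (MEK inhibitor minus no inhibitor) of named genes in 6 lists of related genes. Red points reached the median level in either array, open points did not, and black bars are list medians. NFKB2 (0.60), RELB (0.54) and ICAM3 (0.59) are the highest red points, CRLF2 (-0.77) and LIF (-0.53) the lowest, and none passes the dashed 2-fold lines.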

How the data were processed

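Labelling started from 100 ng of RNeasy-purified total RNA per sample and used the Affymetrix GeneChip WT PLUS Reagent Kit, per the labels' protocols. The authors deposited 1 log2 value per probe set and array, made with Affymetrix Expression Console 1.3 per the submitters' processing notes; the sources used here do not give its settings for background, normalization or summaries. A normalization that equalises quantiles removes differences in total RNA, and summaries of probe sets compress large folds. Of 53617 probe sets, 16098 had 1 gene symbol. Small RNA probe sets (1287) were set aside, and the probe set with the highest mean represented each gene, which gave 13763 genes. Values were used as deposited, differences were taken on the log2 scale, and 2-fold was the threshold. No detection calls were used. With 1 array per group no test was possible, and the number of arrays limits the precision. Genes reaching the median level or differing by 0.8 or more were named, and in the related lists those differing by 0.5 or more, with some others as examples. The promoters of members past 2-fold that had a RefSeq entry were printed. The set, the lists and the 20 pairs were chosen with earlier results of these data known. Alternatives were other scalings, averaged probe sets, filters on level and other thresholds. Counting of calls was tested on simulated data. Computations used Python 3.11.15, numpy 2.4.6, pandas 2.3.3, statsmodels 0.14.6 and matplotlib 3.10.9.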

Additional observations from a re-analysis of the deposited data

How the results depend on the processing

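No paired analysis was possible because neither condition has a second array, and so none could be left out. The 5 genes at least 2-fold higher stayed 5 under both scalings, and averaging probe sets changed nothing because each gene has 1. The count was 3 of the 11 genes whose mean reached the 75th percentile, 8 at 1.5-fold and 3 at 3-fold. The count of 1 gene at least 2-fold lower became 2 after subtracting the median difference of all genes, which took IL1RAPL1 past the threshold, 7 at 1.5-fold, and 0 at 3-fold, among genes whose mean reached the median level and among those at the 75th percentile. The median difference of -0.03 over all 111 genes was 0.22 over the 24 genes whose mean reached the median level, 0.18 over the 30 that reached it in either array and 0.24 over the 11 at the 75th percentile. A filter on the higher value, used for the 30 genes, keeps dim genes that differ. Each filter uses the values that also give the differences, so these medians are no support for a direction. Of 32 named genes, none changed sign under any scaling. For genes below the median level the signal over background is unknown.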
